A study of Mus musculus with 35 samples.

Results

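The adrenergic receptors are the receptors for noradrenaline and adrenaline, and 8 of their genes were followed among the 52636 genes counted in the mouse amygdala. They were chosen by name and found by their Ensembl identifiers, and comprised the alpha-1 receptor genes Adra1a, Adra1b and Adra1d, the alpha-2 receptor genes Adra2a, Adra2b and Adra2c, and the beta receptor genes Adrb1 and Adrb3. Noradrenaline reaches the amygdala through axons whose cell bodies lie in the brainstem, chiefly in the locus coeruleus. Alpha-1 receptors signal through Gq proteins to phospholipase C and protein kinase C, alpha-2 receptors through Gi and Go proteins that lower cyclic AMP and open potassium channels, and beta receptors through Gs and adenylyl cyclase to protein kinase A. In the basolateral amygdala this system is known for its part in arousal and in the storage of emotional memory.

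RNA was sequenced from tissue that had been captured by laser from the anterior and the posterior basolateral amygdala of 19 female mice, in 35 libraries. The mice were either C57BL/6J, an inbred strain, or B6D2F1N, hybrids of C57BL/6 and DBA/2 stock, and lived either in standard housing or in an enriched environment with a playground for 1 hour per day from postnatal day 77. Every mouse had been trained on a touchscreen task from postnatal day 70 and had then taken a cognitive judgment bias test, so that no untrained mice were compared, and age at sampling varied with the time a mouse needed to learn. C57BL/6J mice gave 4 anterior and 4 posterior libraries in standard housing and 2 anterior and 4 posterior libraries in enriched housing. B6D2F1N mice gave 5 anterior and 5 posterior libraries in standard housing and 5 anterior and 6 posterior libraries in enriched housing. Both portions were available for 16 mice, of which 6 were C57BL/6J and 10 were B6D2F1N, and mice are numbered within each strain and housing, so that p-values measure the spread between these mice. The portions are named as the labels name them; in the study's text, the positions given for the posterior portion lie farther forward in the brain than those given for the anterior portion.

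The libraries held between 16938534 and 27352623 counts on genes, with a median of 21409708. Markers of excitatory and inhibitory neurons were found in all 35 libraries, such as Slc17a7 at 72.9 to 887.6 CPM, which are counts scaled to library size with the TMM factors of edgeR, and Gad1 at 149 to 485.4 CPM. In both libraries of B6D2F1N standard mouse 1, Xist, which female cells transcribe from the inactive X chromosome, had 0 counts against at least 1191 counts in the others, while 4 genes of the Y chromosome had at most 1 count in any library. The posterior libraries of B6D2F1N standard mice 2 to 5 had a sum of 5 meningeal fibroblast markers of 47.0 to 90.2 CPM, against 220.2 CPM or more in the other posterior libraries and 31.2 to 80.1 CPM in the anterior libraries. That sum is carried by 1 gene, Dcn, with a median of 689.1 CPM in posterior libraries. The choroid plexus markers of the same 4 libraries summed to 13.5 to 102.6 CPM, each above 15 of the 16 anterior libraries. A difference in dissection or in labelling cannot be told apart for these 4 libraries, and it bears on every value of the B6D2F1N standard posterior group. Values without these libraries are given beside the Adra2a results below.

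In GRCm38, with the gene models of GENCODE release M21, all 8 genes were protein coding. Adra2a (ENSMUSG00000033717) lies at chr19:54044151-54048982 on the plus strand, and Adrb1 (ENSMUSG00000035283) on the same chromosome and strand at chr19:56722199-56733113. Adra1b (ENSMUSG00000050541) lies at chr11:43774606-43901210 on the minus strand and Adra1a (ENSMUSG00000045875) at chr14:66635251-66771168 on the plus strand. Adra2b (ENSMUSG00000058620) lies at chr2:127363208-127367221 and Adra2c (ENSMUSG00000045318) at chr5:35278319-35281763, both on the plus strand. Adra1d (ENSMUSG00000027335) at chr2:131545850-131562283 and Adrb3 (ENSMUSG00000031489) at chr8:27225776-27250616 lie on the minus strand, and each overlaps a gene on the opposite strand, Gm14285 over 147 exon bases and Gm45470 over 839 exon bases. The strand setting of the counting is not given in the sources used here, so that reads in those bases cannot be assigned to a strand.

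The promoters of Adra2a and Adrb1 are printed because these were the members whose level differed between the portions. Each runs from 250 bases before to 50 bases after the transcription start of RefSeq on GRCm38.p6, 5′ to 3′ on the plus strand, at chr19:54045009-54045308 for Adra2a, which begins within the longer GENCODE gene model, and at chr19:56721867-56722166 for Adrb1. Capitals mark matches on either strand to the core of the cyclic AMP response element TGACG, the E-box CACGTG and the GC box GGGCGG.
Adra2a: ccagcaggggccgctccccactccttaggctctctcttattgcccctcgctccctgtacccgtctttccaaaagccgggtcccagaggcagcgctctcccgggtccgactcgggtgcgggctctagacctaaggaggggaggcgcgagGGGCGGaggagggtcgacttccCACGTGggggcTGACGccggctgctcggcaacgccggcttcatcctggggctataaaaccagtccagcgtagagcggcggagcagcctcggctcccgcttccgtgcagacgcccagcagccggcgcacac
Adrb1: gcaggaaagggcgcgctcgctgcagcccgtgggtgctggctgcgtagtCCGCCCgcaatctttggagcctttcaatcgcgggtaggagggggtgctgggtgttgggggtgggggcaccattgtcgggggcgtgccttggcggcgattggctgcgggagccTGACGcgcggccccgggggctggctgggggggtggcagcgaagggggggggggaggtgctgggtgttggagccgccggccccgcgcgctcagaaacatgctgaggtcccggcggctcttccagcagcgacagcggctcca
The Adra2a promoter held 1 match to each of the 3 motifs and the Adrb1 promoter 1 response element core and 1 GC box. Of 32851 mouse promoters of the same length, 20.8% held the response element core, 7.15% the E-box and 35.7% the GC box. G and C made up 68.7% of the Adra2a and 72.3% of the Adrb1 promoter, against a median of 52.7% over all promoters.

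Per kilobase of exons, Adrb1 and Adra2a had the highest levels of the family and Adra2b the lowest. Over the 35 libraries, Adrb1 had 2.72 ± 1.5 CPM per kilobase (SD, n = 35), Adra2a 2.55 ± 1.90, Adra2c 1.24 ± 0.45, Adra1b 1.23 ± 1.08, Adra1a 1.20 ± 0.65, Adra1d 0.687 ± 0.897, Adrb3 0.677 ± 0.782 and Adra2b 0.464 ± 0.618. Neighbours in this order were compared over the 19 mice, with the libraries of a mouse averaged. The test was an exact two-sided sign-flip permutation test, with Benjamini-Hochberg adjustment over the 7 pairs. Only Adra2a and Adra2c differed beyond the spread between mice, by 1.37 ± 1.17 CPM per kilobase, with Adra2a higher in 17 of 19 mice (exact permutation test, adjusted p = 0.00158). For the other neighbours the adjusted p ranged from 0.0830 for Adra1a against Adra1d to 0.992, with Adrb1 above Adra2a in 9 of 19 mice. The place of Adra1a depended on the length used, since its merged exons span 8.73 kilobases and its longest transcript 4.28 kilobases. With the longest transcript as the length, Adra1a had 2.44 CPM per kilobase, moved to rank 3, and stood above Adra1b (exact permutation test, adjusted p = 0.00193) and above Adra1d (exact permutation test, adjusted p = 0.000788).

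The order was not the same in the portions. In anterior libraries Adrb1 led with 3.74 ± 1.62 CPM per kilobase (SD, n = 16), followed by Adra1b with 1.79 ± 1.29. Adra2a had rank 4 there with 1.29 ± 1.02, next to Adra2c at rank 3 with 1.36 ± 0.44. The higher level of Adra2a than of Adra2c was thus not seen in anterior libraries. In posterior libraries Adra2a led with 3.62 ± 1.84 CPM per kilobase (SD, n = 19), followed by Adrb1 with 1.86 ± 0.63, and Adra1b had rank 6 with 0.767 ± 0.574.

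**Figure D1:**
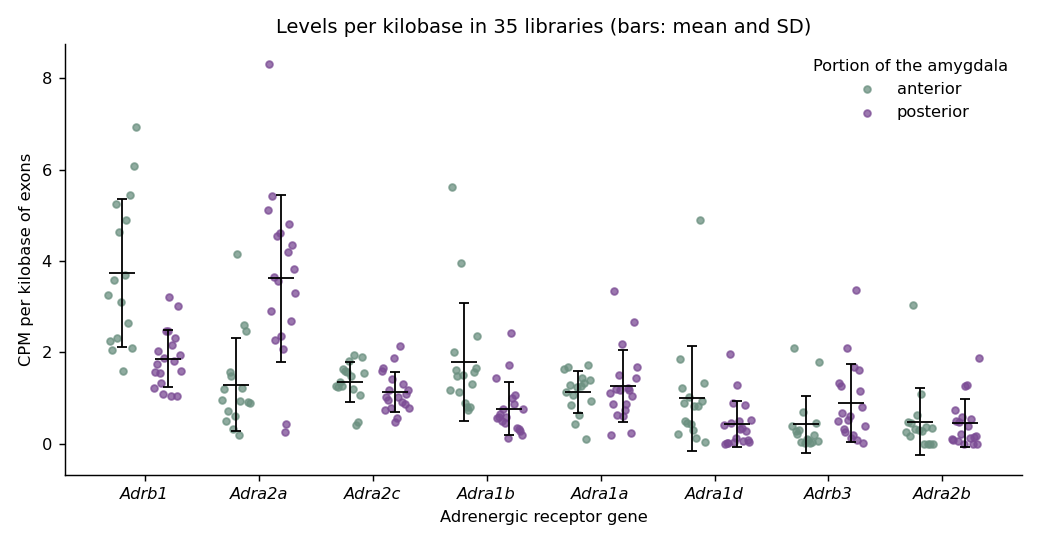
Levels of the 8 adrenergic receptor genes in CPM per kilobase of merged exons (vertical axis), a point per library, for the 16 anterior (green) and 19 posterior (purple) libraries, with the mean and SD as black bars. Adrb1 lies higher in anterior libraries (mean 3.74 against 1.86) and Adra2a in posterior libraries (3.62 against 1.29).

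The comparison of the portions within mice was paired, as in the study's design, and used edgeR's quasi-likelihood test with the mouse as a block and Benjamini-Hochberg adjustment over all genes tested. Adra2a, the alpha-2A receptor, which acts as autoreceptor on noradrenergic axons and postsynaptically on other neurons, was higher in the posterior portion. In C57BL/6J mice in standard housing, mice 1 to 4 had 4.60, 5.78, 2.42 and 3.46 CPM of Adra2a in the anterior portion and 24.7, 40.2, 14.0 and 26.2 CPM in the posterior portion. In C57BL/6J mice in enriched housing, mice 1 and 3 had 7.55 and 7.12 CPM in the anterior portion, and mice 1 to 4 had 17.6, 11.0, 22.0 and 17.2 CPM in the posterior portion. All posterior values of C57BL/6J mice thus lay above all their anterior values, and Adra2a was higher in the posterior portion in 6 of 6 mice with both. The fitted log2 fold change was 2.25 (SE 0.29, a 4.77-fold level, edgeR adjusted p = 0.00011). Of all genes tested in C57BL/6J mice, 3.64% passed the threshold of an adjusted p of at most 0.05, and of the 8 adrenergic receptor genes 1 did, Adra2a. In bulk samples such as these, fewer cells of a type and less RNA per cell cannot be told apart.

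In B6D2F1N mice Adra2a overlapped between the portions and did not pass the threshold. Standard mice 1 to 5 had 1.55, 2.94, 20.0, 0.902 and 4.49 CPM of Adra2a in the anterior portion and 22.3, 11.4, 9.96, 1.24 and 2.11 CPM in the posterior portion. Enriched mice 1, 2, 3, 4 and 6 had 5.88, 12.5, 11.9, 4.37 and 4.35 CPM in the anterior portion, while the 6 posterior libraries ranged from 13.0 to 23.3 CPM with a median of 19.4 CPM. Every enriched posterior library was thus above every enriched anterior library, whereas in standard housing mice 3 and 5 had more in the anterior portion and mice 4 and 5 had little in either. The fitted log2 fold change was 1.12 (SE 0.42, unadjusted p = 0.0157, edgeR adjusted p = 0.176), with Adra2a higher posteriorly in 8 of 10 mice. In B6D2F1N mice 4% of all genes passed by edgeR, and 0 of the 8 members did (3 with an unadjusted p under 0.05). By DESeq2, 1994 of 27761 genes passed, among them 1 member, Adrb1. Without the mice whose posterior libraries had low fibroblast marker sums, the log2 fold change of Adra2a was 1.8 (edgeR adjusted p = 0.0345). That choice was made after seeing the data and left out standard mice 2 to 5, among them both mice with more Adra2a anteriorly. Adra2a also followed that marker sum over all libraries (r = 0.735), so that this fit is no independent test. Without standard mouse 1, whose Xist was at 0, the log2 fold change of Adra2a was 0.855 (edgeR adjusted p = 0.31).

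Over all 16 mice, Adra2a was 3.02-fold higher in the posterior portion (log2 fold change 1.60, SE 0.31, edgeR adjusted p = 0.00104) and higher in 14 of 16 mice. The median was 4.54 CPM in the anterior libraries (0.902 to 20.0) and 18.9 CPM in the posterior libraries (1.24 to 40.2) of these mice. Leaving out each mouse in turn gave log2 fold changes between 1.45 and 1.76, with a highest adjusted p of 0.0035, and the lowest value was that without mouse 1 of the B6D2F1N standard group, whose Xist was at 0. Among all genes, 8.6% passed in this fit, which holds the mice of both strains and is not independent of the strain fits, and 2 of the 8 members passed, Adra2a and Adrb1.

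Adrb1, the beta-1 receptor and the main beta receptor of forebrain neurons, was lower in the posterior portion. In C57BL/6J standard mice 1 to 4, Adrb1 had 11.0, 7.58, 6.95 and 12.1 CPM in the anterior portion and 4.13, 5.27, 5.88 and 6.83 CPM in the posterior portion. Enriched C57BL/6J mice 1 and 3 had 17.7 and 7.82 CPM anteriorly, and mice 1 to 4 had 5.22, 4.51, 3.65 and 6.34 CPM posteriorly. The portions did not overlap in this strain, with the lowest anterior value just above the highest posterior value.

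In B6D2F1N standard mice 1 to 5, Adrb1 had 15.6, 10.5, 5.39, 12.5 and 16.6 CPM in the anterior portion and 8.33, 8.32, 10.9, 3.50 and 7.33 CPM in the posterior portion. The enriched mice 1, 2, 3, 4 and 6 had 8.96, 18.4, 7.09, 20.5 and 23.4 CPM anteriorly, and the 6 posterior libraries ranged from 3.52 to 10.2 CPM with a median of 6.35 CPM. Standard mouse 3 was the single mouse of the 16 with more Adrb1 in the posterior portion.

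Over all 16 mice, Adrb1 had a log2 fold change of -0.935 (SE 0.20, edgeR adjusted p = 0.00302), which is 0.523 of the anterior level, and was lower in the posterior portion in 15 of 16 mice. Its log2 fold change was -0.975 (SE 0.32, adjusted p = 0.128) in C57BL/6J and -0.927 (SE 0.28, adjusted p = 0.0754) in B6D2F1N mice by edgeR, so that neither strain passed alone. DESeq2 put Adrb1 past the threshold in both strains (adjusted p = 0.0359 and 0.016), and in B6D2F1N mice so did edgeR without standard mouse 3 (log2 fold change -1.10, adjusted p = 0.0171) or without the mouse block (adjusted p = 0.0462). Leaving out each mouse in turn kept Adrb1 past the threshold over all mice, with log2 fold changes from -1.05 to -0.854, and -0.939 without the mouse whose Xist was at 0.

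**Figure D2:**
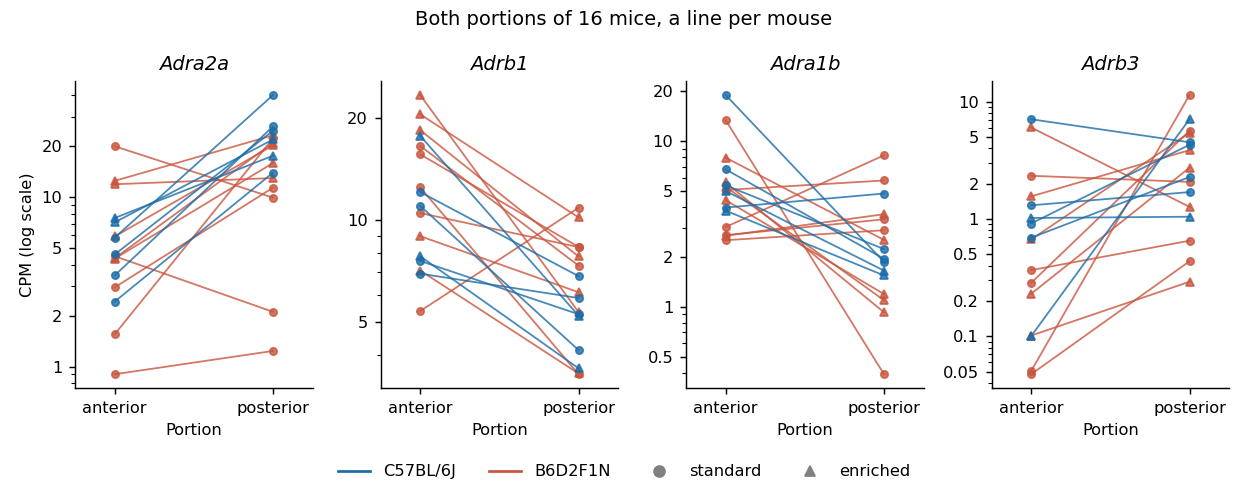
CPM on a log scale (vertical axis) of Adra2a, Adrb1, Adra1b and Adrb3 in the 2 portions of the 16 mice with both, a line per mouse (blue, C57BL/6J; red, B6D2F1N; circles, standard housing; triangles, enriched housing). Adra2a lines go up in 14 of 16 mice and Adrb1 lines go down in 15 of 16, whereas Adra1b goes down in 10 and Adrb3 up in 13.

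Adra1b and Adrb3 came near the threshold over all mice without passing it. Adra1b, the alpha-1B receptor, had a median of 5.04 CPM in the anterior portion (2.52 to 19.0) and 2.09 CPM in the posterior portion (0.391 to 8.22) of the 16 mice. Its log2 fold change was -1.18 (SE 0.40, edgeR adjusted p = 0.0699), with the posterior value lower in 10 of 16 mice, 5 of 6 in C57BL/6J and 5 of 10 in B6D2F1N. The mice that went the other way had small differences or, like B6D2F1N standard mouse 3, went from 3.03 to 8.22 CPM, and without that mouse the adjusted p was 0.0317. DESeq2 (adjusted p = 0.023) and the fit without the mouse block (0.023) also placed Adra1b past the threshold. So did the edgeR fits without mice of low excitatory (0.0336) or low fibroblast marker sums (0.00941), cuts that were chosen after seeing the data. The low fibroblast cut left out B6D2F1N standard mice 2 to 5, all with more Adra1b posteriorly. The low excitatory cut left out B6D2F1N standard mice 3 to 5 and enriched mouse 4. Adra1b had an r of -0.65 with the fibroblast sum over all libraries, and neither fit is an independent test. In 15 of the 16 fits that left out 1 mouse Adra1b did not pass, with an adjusted p of up to 0.137. Without the Xist-0 mouse its log2 fold change was -0.98 (edgeR adjusted p = 0.116).

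Adrb3, the beta-3 receptor, best known from brown and white fat, had a median of 0.680 CPM in the anterior portion (0.0474 to 7.07) and 2.50 CPM in the posterior portion (0.291 to 11.4). On the log scale its values spanned more than those of Adra2a in either portion, and 13 of 16 mice had more in the posterior portion. The log2 fold change was 1.82 (SE 0.61, edgeR adjusted p = 0.0605), and 4 single mice each moved the call when left out, C57BL/6J standard mouse 2, C57BL/6J enriched mouse 1, B6D2F1N standard mouse 1 and B6D2F1N enriched mouse 6, with adjusted p of 0.0465, 0.0495, 0.0499 and 0.0221. DESeq2 gave an adjusted p of 0.0153, and edgeR with no minimum count 0.0392. The log2 fold change was 1.21 (edgeR adjusted p = 0.322) without low excitatory mice and 1.29 (adjusted p = 0.276) without low fibroblast mice. The overlap with the opposite-strand gene Gm45470 described above applies to all values of Adrb3.

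The other 4 members had small or scattered differences between the portions. Adra1a, the alpha-1A receptor, had a log2 fold change of 0.08 (SE 0.27, 95% interval -0.47 to 0.63) over all mice and was higher posteriorly in 8 of 16. Adra2c, the alpha-2C receptor, had -0.29 (SE 0.28, interval -0.871 to 0.283), with medians of 4.89 CPM anteriorly and 3.38 CPM posteriorly. The intervals were far wider for Adra1d, the alpha-1D receptor (-1.26, interval -3.02 to 0.458), and for Adra2b, the alpha-2B receptor (0.27, interval -1.52 to 2.07). Adra1d had a median of 1.57 CPM anteriorly and 0.629 CPM posteriorly, and Adra2b 1.245 CPM and 0.753 CPM. The edgeR adjusted p of these 4 genes ranged from 0.435 to 0.919. The median log2 fold change over the 8 members was -0.11, beside 0.12 over all genes tested.

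**Figure D3:**
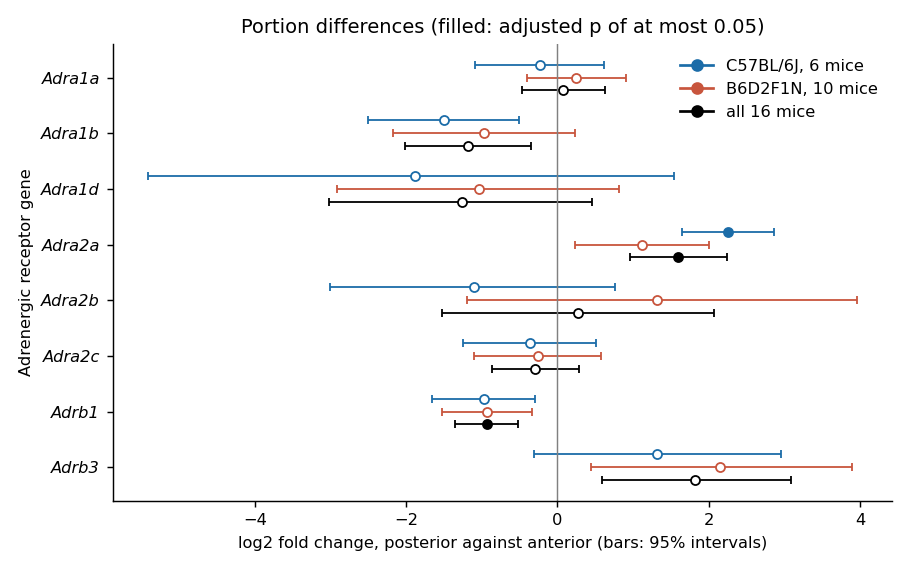
Log2 fold changes of posterior against anterior libraries (horizontal axis) with 95% intervals for each adrenergic receptor gene, in the 6 C57BL/6J mice (blue), the 10 B6D2F1N mice (red) and all 16 mice (black). Filled points, with an adjusted p of at most 0.05, are Adra2a at 2.25 in C57BL/6J mice and 1.60 in all mice, and Adrb1 at -0.935 in all mice.

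The strain fits alone do not show that Adra2a differed between the strains in its portion difference, and the interaction tested it. The log2 fold change of Adra2a was lower in B6D2F1N than in C57BL/6J mice by 1.12 on the fitted scale (estimate -1.12, 95% interval -2.32 to 0.0835, edgeR unadjusted p = 0.0671, adjusted p = 1). It was 0.395 without the mice with low fibroblast marker sums, -0.0146 without those with low excitatory marker sums and -1.51 (unadjusted p = 0.00929, adjusted p = 1) without the mouse whose Xist was at 0, so that its size rested on these mice. The interval of Adrb1 was -0.739 to 1.04 around 0.15. For the portion by strain and the portion by housing interactions, 0 of the 8 members passed by edgeR or DESeq2 and none had an unadjusted edgeR p under 0.05. The portion by housing estimate of Adra2a moved with the same mice. By edgeR it was -0.0975 (unadjusted p = 0.866) with all mice and -1.70 without low fibroblast mice. It was -1.49 (edgeR unadjusted p = 0.00325, adjusted p = 0.984) without low excitatory mice and 0.315 without the Xist-0 mouse. Adra1d reached 4.07 without low fibroblast mice. Both marker cuts were chosen after seeing the data, and the low fibroblast cut leaves the Xist-0 mouse as the only B6D2F1N standard mouse. No conclusion is drawn from the estimates after either cut. In both interactions 0% of all genes tested passed by edgeR, with 819 and 888 of 29437 at an unadjusted p under 0.05.

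Strain was compared within each housing and portion, and these comparisons share libraries with the housing comparisons. No member passed the threshold in any of the 4 comparisons, by edgeR or by DESeq2. Among all genes, 0.37% passed in standard anterior, 0.373% in standard posterior, 0.0639% in enriched anterior and 0.394% in enriched posterior libraries. The single member with an unadjusted p under 0.05 was Adra2a in standard posterior libraries, where the 4 C57BL/6J values of 14.0 to 40.2 CPM overlapped the 5 B6D2F1N values of 1.24 to 22.3 CPM. Its log2 fold change of B6D2F1N against C57BL/6J was -1.47 (SE 0.62, unadjusted p = 0.0322, edgeR adjusted p = 0.47). Without the low fibroblast libraries, which leaves B6D2F1N standard mouse 1 alone in its group and assumes that it varies like the other groups, the log2 fold change was -0.24 (adjusted p = 0.961), and without mouse 1 it was -2.06 (adjusted p = 0.212). In enriched posterior libraries the strains had close Adra2a levels, 16.9 ± 4.5 CPM in C57BL/6J (SD, n = 4) and 18.7 ± 3.7 CPM in B6D2F1N (SD, n = 6), with an interval of the log2 difference from -0.382 to 0.701.

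Adrb1 was 0.31 to 0.49 higher on the log2 scale in B6D2F1N than in C57BL/6J mice in all 4 comparisons, in none of which it passed. In standard anterior libraries the means were 9.41 ± 2.53 CPM in C57BL/6J (SD, n = 4) and 12.1 ± 4.5 CPM in B6D2F1N (SD, n = 5), and in enriched posterior libraries 4.93 ± 1.14 CPM (n = 4) and 6.59 ± 2.26 CPM (n = 6). The difference was within the spread between mice, and the interval in standard posterior libraries ran from -0.316 to 1.29. Adrb3 had its widest strain difference in standard anterior libraries, at 1.31, 7.07, 0.914 and 0.691 CPM in C57BL/6J and 2.33, 0.0474, 0.366, 0.285 and 0.0505 CPM in B6D2F1N. The fitted log2 fold change was -2.0 (SE 1.08, edgeR adjusted p = 0.604), and -3.65 (unadjusted p = 0.00384, adjusted p = 0.301) without B6D2F1N mouse 1. One C57BL/6J library and 1 B6D2F1N library stood well above the rest of their groups there.

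Housing, the comparison of enriched with standard mice within a strain and portion, gave no member past the threshold by edgeR or DESeq2. Among all genes, 0% passed in C57BL/6J anterior libraries, 0.0163% in C57BL/6J posterior libraries, 0% in B6D2F1N anterior and 0% in B6D2F1N posterior libraries. The single member with an unadjusted p under 0.05 was Adra2b in C57BL/6J anterior libraries, with 1.02, 1.91, 0.685 and 1.79 CPM in standard housing and 12.1 and 1.30 CPM in enriched housing. One of the 2 enriched libraries, mouse 1, carried the difference (log2 fold change 2.32, SE 0.80, unadjusted p = 0.0127, edgeR adjusted p = 0.741), and over the alternatives the value ranged from -0.07 to 3.19. Adra2a in posterior libraries had values of opposite sign in the strains, at -0.64 (SE 0.32, interval -1.32 to 0.0396) in C57BL/6J and 0.965 (SE 0.54, interval -0.177 to 2.11) in B6D2F1N mice, neither of which passed. In B6D2F1N the value was 0.293 without the low excitatory libraries and 1.54 (edgeR adjusted p = 0.652) without mouse 1 of the standard group. Without the low fibroblast libraries the B6D2F1N value was -0.262. That cut leaves standard mouse 1, whose Xist was at 0, alone in its group, so that no sign is read from it. Adrb1 had intervals of -1.03 to 0.696 in C57BL/6J posterior and -0.981 to 0.507 in B6D2F1N posterior libraries.

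The interaction of strain and housing was tested within each portion, with 0% of all genes past the threshold in anterior and 0% in posterior libraries. Adra2a and Adra1d had an unadjusted p under 0.05 in posterior libraries, and 0 members passed by edgeR or DESeq2. The Adra2a estimate was 1.63 (SE 0.71, interval 0.161 to 3.10, unadjusted p = 0.0312, edgeR adjusted p = 0.541), 0.385 without the low fibroblast libraries, which leaves the mouse with Xist at 0 alone in its group, and 2.22 (unadjusted p = 0.00277, adjusted p = 0.323) without that mouse. For Adra1d it was -3.59 (SE 1.67, unadjusted p = 0.0406, edgeR adjusted p = 0.564), and 3 of the 4 C57BL/6J standard posterior libraries had 0 or 1 counts of Adra1d, which is under the 3 counts that a 0 allows.

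**Figure D4:**
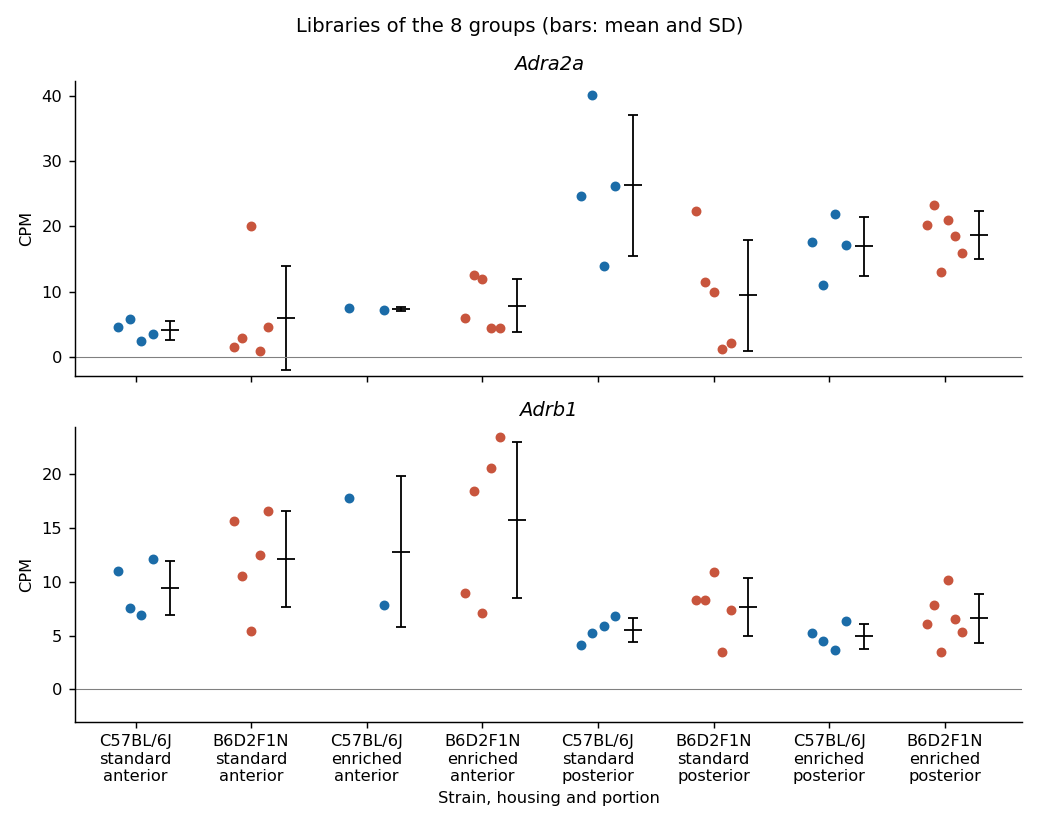
CPM (vertical axis) of Adra2a (upper panel) and Adrb1 (lower panel) in each of the 8 groups of portion, housing and strain, a point per library (blue, C57BL/6J; red, B6D2F1N) with the mean and SD as bars. The B6D2F1N standard posterior group has a mean Adra2a of 9.40 CPM, with values from 1.24 to 22.3, against 16.9 to 26.3 CPM in the means of the other 3 posterior groups.

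Members differed in how much they varied between libraries of one group. The within-group SD of log2 CPM was 0.56 for Adrb1 and 0.59 for Adra2c, near the median of 0.52 over the 16022 genes with a mean of at least 1 CPM. It was 0.93 for Adra1b, 1.02 for Adra2a and 1.07 for Adra1a, and 1.49, 1.70 and 2.02 for Adra1d, Adrb3 and Adra2b. Those last 3 also had the lowest means, 1.30, 2.29 and 1.86 CPM, with 0 to 209, 1 to 259 and 0 to 262 counts in a library. Adra2b ranged from 0 to 12.1 CPM, with no count in some B6D2F1N libraries of both portions, whereas Adra2c stayed between 1.42 and 7.38 CPM in all 35 libraries. At these depths 0 counts allow up to 3 counts. Such limits cover counting error and nothing else, as the labels name no molecular identifiers.

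Pearson's r of log2 CPM between members, after the group means were removed, was weak for most pairs of the family. The highest was 0.51 for Adra1b with Adra2b and the lowest -0.44 for Adra2b with Adra2c, over 35 libraries that share mice. For Adra2a with Adrb1 it was -0.03 within groups and -0.41 over all libraries, the latter holding the portion difference of both.

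Among 13720 protein-coding genes with a mean of at least 1 CPM, those whose log2 CPM followed a member most closely over the 35 libraries are given as a description. For Adra2a they were Pcdh8, an activity-regulated protocadherin (r = 0.792), Dock10 (r = 0.778) and Tspan33 (r = 0.776), all with a higher mean in posterior libraries, Pcdh8 at 54.2 against 18.5 CPM. For Adrb1 they were Cthrc1 (r = 0.773), the adenylyl cyclase gene Adcy2 (r = 0.771) and Dpy19l1 (r = 0.767), all with a lower mean in posterior libraries, Adcy2 at 69.4 against 140 CPM. For Adra1b they were Myo5a (r = 0.772), the monoacylglycerol lipase gene Mgll (r = 0.746) and Slc41a3 (r = 0.743). Within groups r was lower for these, 0.608 for Pcdh8 with Adra2a and 0.634 for Adcy2 with Adrb1, and Tspan33 kept 0.753 with Adra2a. The closest genes reached 0.701 for Adra1a (Shc2), 0.736 for Adra1d (Syt13), 0.75 for Adra2b (Pkmyt1), 0.685 for Adra2c (Fam173a) and 0.756 for Adrb3 (Trp53i13).

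The machinery that serves these receptors was followed with a list of 60 genes in 4 roles, of which 59 were tested over all mice. In that fit 15 were lower and 2 higher in the posterior portion and 42 did not pass, with a median log2 fold change of -0.20 beside 0.12 over all genes. Of all 29437 genes tested there, 1380 were lower and 1152 higher, which is 8.6%. In C57BL/6J mice 8 were lower and 1 higher, beside 541 lower and 396 higher of all 25751 genes (3.64%). In B6D2F1N mice 6 were lower and 1 higher, beside 659 lower and 451 higher of all 27761 genes (4%). In the 12 strain, housing and interaction comparisons 0 passed by edgeR, with 0 to 10 at an unadjusted p under 0.05 and 0 or 1 past the threshold by DESeq2. Of the 28 effectors, 10 fell and 1 rose over all mice. Prkcb, a protein kinase C gene, fell from 544 ± 141 to 214 ± 73 CPM (log2 fold change -1.39, SE 0.15, edgeR adjusted p = 3.57e-07), and Adcy2 fell from 140 ± 40 to 69.4 ± 22.1 CPM (-1.06, SE 0.11, adjusted p = 3.95e-07). Plcb1, the phospholipase C that Gq activates, fell by 0.887 on the log2 scale (SE 0.10, adjusted p = 6.3e-07) and Prkar1b, a regulatory subunit of protein kinase A, by 0.848 (SE 0.10, adjusted p = 1.19e-06).

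Among the other roles, 2 of 8 G protein alpha subunit genes were lower posteriorly over all mice, where 8.6% of all genes passed. Of 14 genes of desensitization and signal termination 2 were lower and 1 higher. In the list of noradrenaline synthesis, transport and breakdown, Dbh, the enzyme that makes noradrenaline, had 0 counts in 26 of 35 libraries and at most 3.84 CPM, and Pnmt, which makes adrenaline, 0 counts in 24 libraries. Maoa, a monoamine oxidase, was found in all libraries, at 28.4 to 65.2 CPM.

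Markers of other cells moved with the portions, and their part in the receptor differences was not tested. The counts below are from the fit over all mice, in which 8.6% of all genes passed. Over all mice 4 of 4 ependymal and 4 of 4 choroid plexus markers were higher posteriorly, and the summed choroid plexus markers ranged from 0.898 to 36.8 CPM in anterior and from 4.92 to 422.1 CPM in posterior libraries, with Folr1 and Tmem212 each at 0 in 10 libraries. Of 6 excitatory neuron markers 4 were lower and 1, Slc17a6, was higher, and the sum ranged from 321.5 to 1173 CPM anteriorly and from 278.5 to 935.6 CPM posteriorly. Of 5 fibroblast markers 1 was higher, Dcn, and the sum ranged from 31.2 to 80.1 CPM anteriorly and from 47.0 to 1758 CPM posteriorly. Of 6 astrocyte markers 3 were higher and 1 lower, 2 of 4 mural cell markers and 1 of 5 endothelial markers were lower, and 0 of 6 oligodendrocyte and 0 of 5 microglia markers passed by edgeR, with 0 and 2 at an unadjusted p under 0.05 and 0 and 1 by DESeq2. Of 6 inhibitory neuron markers 1 was lower, and of 6 striatal projection neuron and 3 noradrenergic neuron markers tested 0 passed by edgeR or DESeq2, with 1 of each list at an unadjusted p under 0.05.

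Across the 35 libraries the log2 CPM of Adra2a had an r of 0.74 with the log2 sum of the fibroblast markers and of 0.37 after group means were removed. As that sum is carried by Dcn, these values describe Dcn more than fibroblasts. With the oligodendrocyte markers r was 0.53 and 0.56. For Adrb1, r was 0.56 with excitatory neuron markers and 0.39 within groups, 0.65 and 0.46 with mural cell markers, and -0.58 and -0.42 with choroid plexus markers. These values describe libraries that share mice and depth. In the 2 posterior libraries with the least Adra2a, B6D2F1N standard mice 4 and 5, the fibroblast sums were 47.0 and 86.9 CPM, the oligodendrocyte sums 2015 and 2164 CPM, which were the lowest of all libraries, and the striatal projection neuron sums 798.1 and 440.7 CPM, which were the highest. The anterior library with the most Adra2a, B6D2F1N standard mouse 3 at 20.0 CPM, had the lowest excitatory sum of the anterior libraries, 321.5 CPM, and the highest inhibitory sum among them, 1577 CPM. Without the 4 mice that had a library of low excitatory markers, Adra2a had a log2 fold change of 2.01 over the other 12 mice (edgeR adjusted p = 2.96e-05) and Adrb1 of -0.98 (adjusted p = 0.00672). That cut was chosen after seeing the data. It left out B6D2F1N standard mice 3 and 5, the 2 of 16 mice with more Adra2a in the anterior portion. The larger Adra2a value is therefore no independent test of its portion difference.

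**Figure D5:**
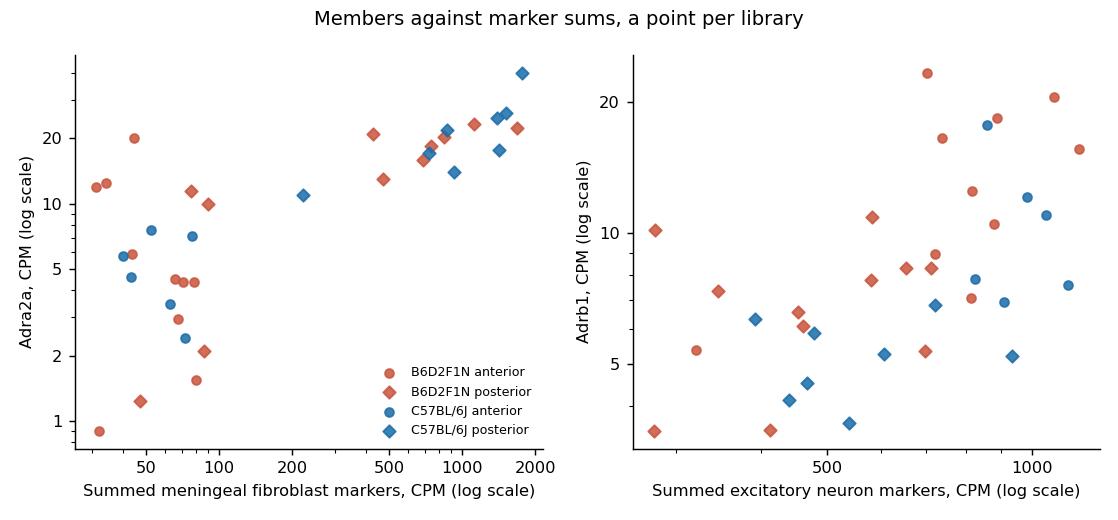
CPM of Adra2a against the summed CPM of 5 meningeal fibroblast markers (left) and of Adrb1 against 6 excitatory neuron markers (right), on log axes, a point per library (blue, C57BL/6J; red, B6D2F1N; circles, anterior; diamonds, posterior). Anterior libraries lie at 31.2 to 80.1 CPM of fibroblast markers, a sum carried by Dcn, and 4 B6D2F1N posterior libraries lie within or just above that range, at 47.0 to 90.2 CPM.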

How the data were processed

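Reads of 72 bases from polyA RNA of laser-captured amygdala tissue were trimmed by the authors with Trimmomatic 0.38, aligned to GRCm38 (mm10) with HISAT2 2.1.0, handled with SAMtools 1.8 and assigned to genes with HTSeq 0.11.2. The annotation release and strand setting of the counting are not given in the sources used here. The authors deposited raw counts per Ensembl gene and library, with no normalization, and between 25.5 and 37.7% of the reads that HTSeq tallied were not assigned to a gene and were left out. Symbols came from GENCODE M21, which holds 52489 of the 52636 identifiers. None of the 595 pairs of libraries held identical counts.

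Groups were taken from the labels for strain, housing, portion and mouse. Genes with at least 10 counts over the libraries of a fit were tested with the quasi-likelihood test of edgeR 4.0.16 in R 4.3.3, with TMM scaling and Benjamini-Hochberg adjustment over all genes of the fit. Genes passed the threshold at an adjusted p no higher than 0.05. Portions were compared with the mouse as a block, strain and housing in unpaired fits, and interactions as terms of 1 fit. Intervals are 95% intervals of the fitted log2 fold change, and a prior count of 2 went into log2 CPM. The study's methods state the pairing of portions by mouse. After removal of group means, both libraries from one animal correlated with a median r of 0.0481 over 16 mice (-0.105 to 0.222) across 16022 genes, which are not independent replicates. Each mouse is 1 animal, and animals were housed in shared cages.

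Alternatives were DESeq2 1.42.0, DESeq2's size factors in edgeR, edgeR's filterByExpr, no minimum count, no mouse block, standard housing only, the 4 groups of a portion in 1 fit, each mouse left out in turn, the longest transcript as length and, chosen after seeing the data, leaving out libraries with an excitatory marker sum under 400 CPM or posterior libraries with a fibroblast marker sum under 200 CPM, both before TMM scaling. The fits were tested on simulated data with known changes. The named genes were the 8 members, the 4 pathway genes with the smallest p among those past the threshold in each comparison, of which those over all mice are given, and the 3 protein-coding genes most like each member. Members and gene lists were chosen with earlier results of these data known. Adra1a, Adra1d and Adrb3 had no entry in the promoter table. One gene of the pathway list is not reported here by name.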

Additional observations from a re-analysis of the deposited data

Results flagged for a closer look

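In 56 groups of 4 to 6 libraries, 11 values of a member lay apart from the rest of their group by Dixon's ratio at its 95% limit. For normally distributed values, chance alone gives this in about 1 in 20 groups. The ratio was taken on CPM without logs, and each flagged value was the highest of its group. That rate may therefore not hold here, and no excess over chance is read from the number. Adra2a was at 20.0 CPM in B6D2F1N standard anterior mouse 3, against 0.902 to 4.49 CPM in the other 4 libraries. Adra1b was at 13.4 CPM in B6D2F1N standard anterior mouse 1, against 2.52 to 5.08 CPM, and at 4.83 CPM in C57BL/6J standard posterior mouse 1, against 1.86 to 2.23 CPM. Adra1d was at 9.31 CPM in B6D2F1N enriched anterior mouse 2, against at most 2.53 CPM, and at 0.785 CPM in C57BL/6J standard posterior mouse 1, against at most 0.0465 CPM. Adra2b was at 7.55 CPM in B6D2F1N enriched posterior mouse 6, against at most 2.21 CPM, and Adra2c at 4.66 CPM in C57BL/6J standard anterior mouse 3, against 4.26 to 4.32 CPM. Adrb3 was at 7.07 CPM in C57BL/6J standard anterior mouse 2, at 2.33 CPM in B6D2F1N standard anterior mouse 1, at 6.02 CPM in B6D2F1N enriched anterior mouse 6 and at 7.08 CPM in C57BL/6J enriched posterior mouse 3, where the other libraries of those groups had at most 1.31, 0.366, 1.56 and 1.77 CPM. Adrb1 and Adra1a had no such value.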

How the results depend on the processing

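Of 2079 alternatives for the 120 log2 fold changes of the members, 2062 left the call as it was, 17 put a member past the threshold and 0 took one away or turned a called direction, while 146 changed the sign of a value that passed in neither fit. The number of members past the threshold was 3 against 1 in C57BL/6J, 1 against 0 in B6D2F1N and 4 against 2 over all mice with DESeq2. Among all genes, DESeq2 passed 1535 against 937 of 25751, 1994 against 1110 of 27761 and 3432 against 2532 of 29437 in these fits. Without the replicate block of the mouse, it was 1 against 0 in B6D2F1N mice (Adrb1, adjusted p = 0.0462), and no other member count moved by over 1.5 times, although Adra1b also passed over all mice. It was 1 in B6D2F1N without the low fibroblast libraries and between 0 and 1 as each mouse was left out. The level of Adra1a per kilobase was 2.44 with the longest transcript, and the other 7 levels moved by less than their SD. The cause of these changes was not tested.

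Counts over all genes moved more. DESeq2 called 1535 against 937 genes between portions in C57BL/6J and 1994 against 1110 in B6D2F1N mice, 254 against 90, 392 against 94, 137 against 15 and 342 against 101 between strains (standard anterior, standard posterior, enriched anterior, enriched posterior), and 100 against 0, 319 against 4, 8 against 0 and 13 against 0 between housings (C57BL/6J anterior and posterior, B6D2F1N anterior and posterior). It called 1 gene for portion by housing, and 11 and 37 for strain by housing in anterior and posterior libraries, against 0. With no minimum count the numbers were 57 against 15 for strain in enriched anterior, 274 against 0 and 112 against 4 for housing in C57BL/6J anterior and posterior, and 8 against 0 for portion by strain. Without the replicate block, 3955 against 2532 genes passed between portions over all mice. Standard housing alone gave 198, and leaving out mice of low excitatory markers 540, against 1110 in B6D2F1N. The 4 groups in 1 fit gave 44 against 15 for strain in enriched anterior and 0 against 4 for housing in C57BL/6J posterior libraries. Without the low fibroblast libraries 13 against 94 genes passed for strain in standard posterior, and 2, 1 and 1 against 0 for portion by strain, housing in B6D2F1N posterior and strain by housing in posterior libraries; without low excitatory libraries 3 against 0 passed for portion by strain. Leaving out 1 mouse gave 602 to 1070 in C57BL/6J and 770 to 1220 in B6D2F1N portions, 59 to 166 for strain in standard posterior, 60 to 83 in standard anterior, 1 to 15 in enriched anterior, 0 to 172 for housing in C57BL/6J posterior, 0 to 10 in B6D2F1N posterior, 0 to 14 for strain by housing in posterior libraries and 0 to 1 for portion by strain. Adra1d, Adra2b and Adrb3 had low mean levels and a wide spread between libraries of one group. In B6D2F1N enriched anterior libraries Adrb3 ran from 2 to 155 counts and Adra1d from 2 to 209. In B6D2F1N enriched posterior libraries Adra2b ran from 0 to 161 counts. The sources of this spread were not tested.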
